A study of Mus musculus with 6 samples.

Results

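The MHC class II presentation genes of the mouse were followed in whole lung RNA: *H2-Aa*, *H2-Ab1*, *H2-Eb1*, *H2-DMa*, *H2-DMb1*, *H2-DMb2*, *H2-Oa*, *H2-Ob*, *Cd74* and *Ciita*. They were taken from the deposited transcript table by symbol, and the values of a gene's Ensembl transcripts were added up. This gave 10 genes of 22158 in all, with 23 of 70782 Ensembl transcripts. All libraries came from lungs of BALB/c mice, an inbred strain, labelled as 9 weeks old. The PM2.5 group had been given airborne fine particles in saline through the trachea, at 5 mg per kg of body weight in 50 µl, weekly over 8 weeks, and the saline group had been given the same volume of saline on that schedule. Each group holds 3 libraries, numbered 2, 3 and 4. The labels do not state whether the libraries of a group were separate mice, so p-values reflect the spread between libraries whatever its source. The comparison asks how the lung RNA of PM2.5 mice differs from that of saline mice, here for antigen presentation to CD4 T cells.

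MHC class II molecules are pairs of an alpha and a beta chain that carry peptides of engulfed proteins to the cell surface, where CD4 T cells read them. New chains assemble on the invariant chain, encoded by *Cd74*, which blocks the groove until proteases in endosomes cut it down to a short peptide. The DM molecule removes that peptide and lets others bind, and the DO molecule, made mainly by B cells, holds DM in check. Transcription is switched on by CIITA, which binds no DNA itself and docks on the RFX, CREB and NF-Y factors at the X and Y boxes of the promoters. In lung, dendritic cells, B cells, macrophages and alveolar type 2 epithelial cells are known carriers of class II.

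The promoters are shown because the coactivator encoded by one member acts on the others through them. The reference promoter table (RefSeq, assembly GRCm38.p6, strain C57BL/6J) had an entry covering a deposited transcript start for 6 of the 10 genes, reaching from 250 bases before to 50 bases after the RefSeq start. The entries of *H2-DMa* covered no deposited start, and *H2-Ab1*, *Cd74* and *Ciita* were not in the table. Capitals mark the Y box core TGATTGG and, where it lies on the printed strand of the stretch, ACNGATG, letters of the X box. The stretches lie at chr17:34287857-34287933 (minus strand, *H2-Aa*), chr17:34305746-34305822 (*H2-Eb1*), chr17:34153068-34153144 (*H2-DMb1*), chr17:34145097-34145173 (*H2-DMb2*), chr17:34092274-34092350 (*H2-Oa*) and chr17:34238786-34238862 (*H2-Ob*), the last 5 on the plus strand.
H2-Aa: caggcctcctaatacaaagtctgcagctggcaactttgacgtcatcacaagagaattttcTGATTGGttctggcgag
H2-Eb1: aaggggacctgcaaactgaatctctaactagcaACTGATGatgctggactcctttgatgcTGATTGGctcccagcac
H2-DMb1: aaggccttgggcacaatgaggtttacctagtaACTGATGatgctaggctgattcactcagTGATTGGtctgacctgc
H2-DMb2: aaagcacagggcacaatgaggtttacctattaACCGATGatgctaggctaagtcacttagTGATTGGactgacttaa
H2-Oa: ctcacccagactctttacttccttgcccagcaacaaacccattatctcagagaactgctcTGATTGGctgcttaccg
H2-Ob: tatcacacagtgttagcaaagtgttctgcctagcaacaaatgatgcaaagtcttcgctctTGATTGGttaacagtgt

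All 6 promoters held TGATTGG, which began 45 to 92 bases before the RefSeq start. On either strand it occurred in 7.82% of the 32851 promoters of the table; this motif was chosen after the letters had been read. The core CCAAT, which TGATTGG contains on the opposite strand as ATTGG, was in all 6 and in 37.4% of all promoters. ACNGATG on either strand was in 5 of the 6 and in 9.85% of all promoters. In *H2-Oa* it lay 87 bases before ATTGG, outside the printed stretch, and in *H2-Aa* none lay before TGATTGG on the printed strand. These matches need not be X boxes. An unmarked stretch lacks these exact letters only, and X boxes with other letters were not searched for. ACNGATG followed on its strand by ATTGG after 10 to 30 bases was in 3 of the 6, *H2-Eb1*, *H2-DMb1* and *H2-DMb2*, with 22 or 23 bases between them, and in 0.158% of all promoters. The promoters of the neighbouring copies *H2-DMb1* and *H2-DMb2* were identical at 84.2% of 247 aligned bases. BALB/c carries other alleles at this locus, and its own promoter letters were not used here.

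Values are FPKM, fragment numbers divided by the length of the transcript and the size of the library, so levels of different genes can be set side by side as far as length goes. The libraries summed to between 345089 and 388125 FPKM over all transcripts. Spacing of low values corresponds to an estimated 18.6 to 22.0 M fragments per library, at which 3 fragments on a transcript of 1 kb are worth 0.136 to 0.161 FPKM, counting error only. The lung label was borne out by *Sftpc*, the surfactant protein C gene of alveolar type 2 cells, listed at 588 FPKM or more in every library. That gene also set libraries apart, at 6618, 588 and 1952 FPKM in PM2.5 libraries and 8108, 687 and 861 FPKM in saline libraries. Other alveolar type 2 markers did not share this swing. *Sftpb* lay between 1524 and 1900 FPKM and *Slc34a2* between 466 and 580 FPKM over the libraries. The cause of the uneven *Sftpc* values was not tested. Between 17.6% and 20.6% of a library's FPKM lay in transcripts with no position or gene, and fragments counted there are in no gene value below. Whether any of them came from the genes reported here was not tested. Fragments were aligned to mm10, the genome of C57BL/6J, and the effect of BALB/c alleles on the values was not tested.

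The class II genes spanned more than 3 orders of magnitude and made up 0.217% to 0.287% of a library when added together. *Cd74* led with a mean of 594 FPKM over the 6 libraries, followed by the classical chains *H2-Aa* (113 FPKM), *H2-Eb1* (89.1 FPKM) and *H2-Ab1* (81.3 FPKM). The DM genes *H2-DMa* and *H2-DMb2* averaged 13.3 and 10.2 FPKM, the DO beta chain *H2-Ob* 3.98 FPKM, *Ciita* 3.39 FPKM, the DO alpha chain *H2-Oa* 1.63 FPKM and *H2-DMb1* 0.347 FPKM. The ranges over libraries overlapped between *H2-Aa* and *H2-Eb1*, between *H2-Eb1* and *H2-Ab1*, between *H2-DMa* and *H2-DMb2*, between *H2-Ob* and *Ciita*, and between *Ciita* and *H2-Oa*. They did not overlap at the steps from *Cd74* to *H2-Aa*, from *H2-Ab1* to *H2-DMa*, from *H2-DMb2* to *H2-Ob* and from *H2-Oa* to *H2-DMb1*.

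**Figure D1:**
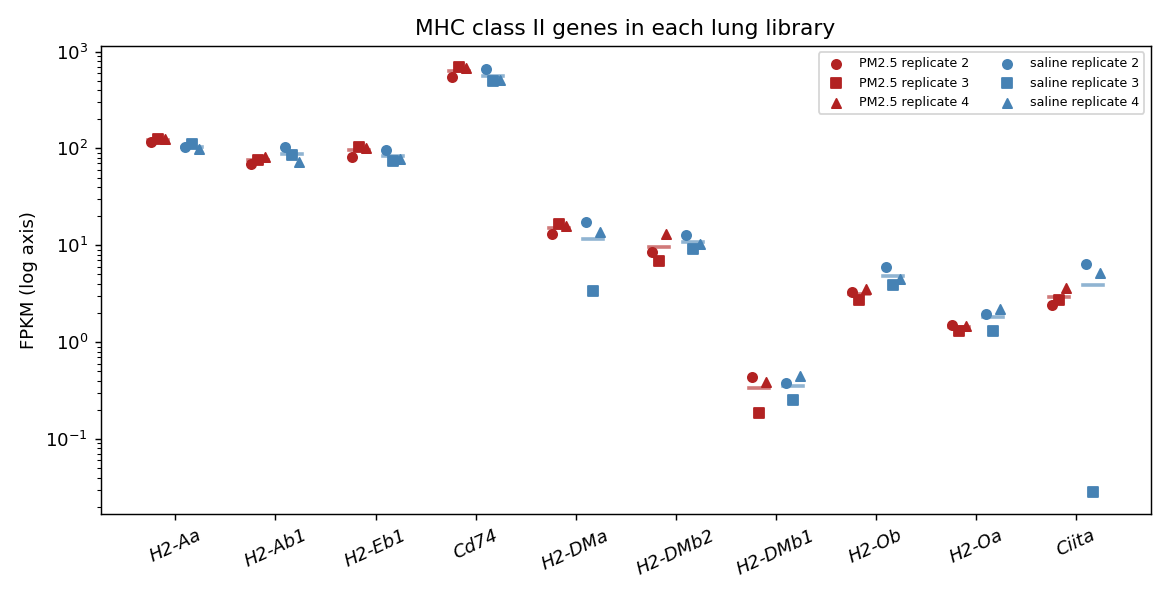
FPKM (log axis) of the 10 class II genes in the 3 PM2.5 libraries (red) and the 3 saline libraries (blue), with a line at each group mean. The groups lie apart for *H2-Aa* and *H2-Ob*, and saline replicate 3 falls below all other libraries for *H2-DMa* and *Ciita*.

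The alpha chain of the A molecule, *H2-Aa* (17:34282744-34287827, mm10, minus strand), was 116, 124 and 126 FPKM in PM2.5 libraries and 104, 112 and 97.5 FPKM in saline libraries. All 3 PM2.5 values lay above all 3 saline values. Its partner *H2-Ab1* (17:34263209-34269418) was 69.3, 76.3 and 80.8 FPKM in PM2.5 libraries and 104, 85.3 and 72.3 FPKM in saline libraries. Here the groups overlapped, with saline replicate 2 the highest library. The E beta chain *H2-Eb1* (17:34305877-34316199) was 82.3, 103 and 101 FPKM in PM2.5 libraries and 97.3, 74.4 and 77.1 FPKM in saline libraries, also overlapping.

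On the log2(FPKM + 0.5) scale, which understates fold changes of low genes, the fold change of *H2-Aa* was 0.22 ± 0.09 (SE; limma, unadjusted p = 0.0398, adjusted p = 0.407). That of *H2-Ab1* was -0.19 ± 0.15 (limma, adjusted p = 0.655), or -0.060 without saline replicate 2 and -0.32 without saline replicate 4, and that of *H2-Eb1* 0.20 ± 0.14 (limma, adjusted p = 0.630). None of these passed the threshold of 0.05 on the adjusted p. Summed over the 3 genes the classical level was 293 ± 22.1 FPKM in PM2.5 libraries and 275 ± 29.2 FPKM in saline libraries (SD, n = 3 each). A single transcript carried each gene almost entirely, with 96.9% or more of the gene's FPKM in either group.

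The E alpha chain gene is listed as the pseudogene *H2-Ea-ps*, because the reference strain C57BL/6J has a deletion at its promoter and makes no E molecule, whereas BALB/c does. In these lungs it was 116, 134 and 141 FPKM in PM2.5 libraries and 152, 112 and 110 FPKM in saline libraries, at the height of the other classical chains (log2 fold change 0.08 ± 0.16; limma, adjusted p = 0.881). Within a library it was 1.41, 1.30 and 1.40 times *H2-Eb1* in PM2.5 libraries and 1.56, 1.50 and 1.42 times in saline libraries, a ratio computed after the values were seen. Another E beta gene, *H2-Eb2*, was near the floor at 0.114, 0.0667 and 0.156 FPKM in PM2.5 libraries and 0.185, 0.298 and 0.173 FPKM in saline libraries.

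Ratios within a library need no scaling between libraries. *H2-Aa* over *H2-Ab1* was 1.67, 1.62 and 1.56 in PM2.5 libraries and 1.01, 1.31 and 1.35 in saline libraries. *H2-Eb1* over *H2-Ab1* was 1.19, 1.35 and 1.25 in PM2.5 libraries and 0.939, 0.872 and 1.07 in saline libraries. Neither ratio overlapped between the groups, so relative to *H2-Ab1* both other chains stood higher in every PM2.5 library. The share of other gene pairs whose ratio does not overlap was not computed. Both ratios here have *H2-Ab1* as denominator, so they are not independent results. The mean log2 ratios differed by 0.42 and 0.40, PM2.5 minus saline, each with an exact 2-sided permutation p of 0.1, the smallest that 3 against 3 libraries allow, and an adjusted p of 0.233 over the 7 ratios computed. Leaving out 1 library at a time, the differences were 0.28 to 0.49 for *H2-Aa* and 0.33 to 0.48 for *H2-Eb1*, without saline replicate 2 0.28 for *H2-Aa*.

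**Figure D2:**
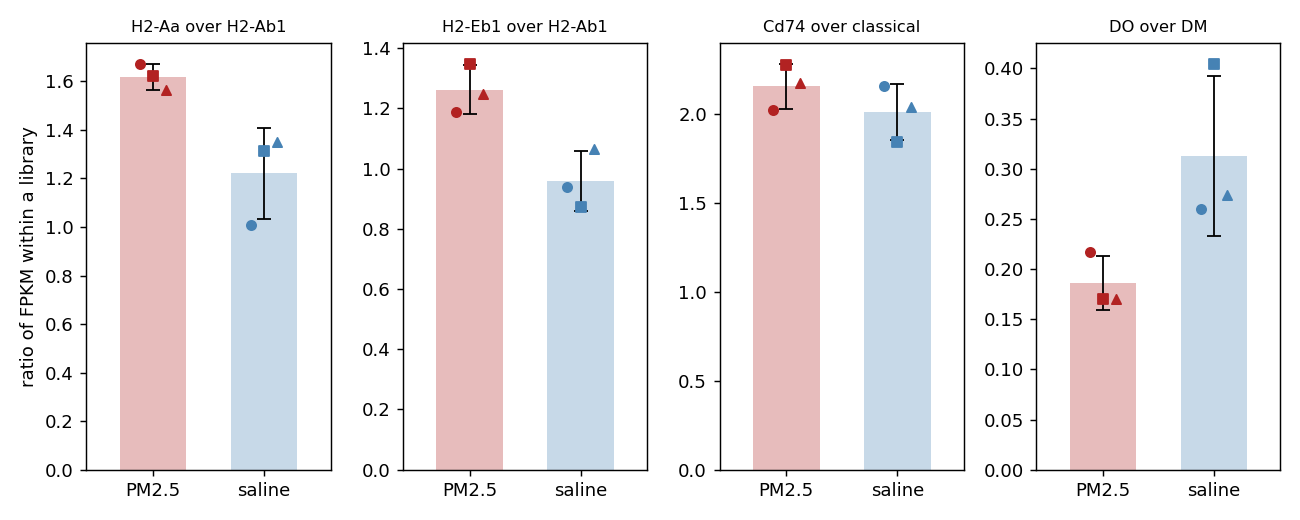
Ratio of FPKM within each library for 4 of the 7 ratios, with bars at group means, error bars of 1 SD (n = 3) and a point per library (circle, square and triangle for replicates 2, 3 and 4). *H2-Aa* and *H2-Eb1* relative to *H2-Ab1* are higher, and DO relative to DM is lower, in every PM2.5 library than in every saline library, while *Cd74* relative to the classical chains overlaps.

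The invariant chain gene *Cd74* (18:60803848-60812646, mm10) was 541, 690 and 670 FPKM in PM2.5 libraries and 659, 501 and 504 FPKM in saline libraries. The groups overlapped, with PM2.5 replicate 2 among the lower and saline replicate 2 among the higher values (log2 fold change 0.20 ± 0.17; limma, adjusted p = 0.693). *Cd74* over the sum of the classical chains was 2.02, 2.28 and 2.18 in PM2.5 libraries and 2.16, 1.85 and 2.04 in saline libraries, with an exact 2-sided permutation p of 0.4. Over the 6 libraries this multiple lay between 1.85 and 2.28.

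Alternative splicing of *Cd74* gives a short and a long invariant chain, and the table does not say which of its transcripts encodes which. ENSMUST00000050487 was 404, 495 and 472 FPKM in PM2.5 libraries and 529, 359 and 368 FPKM in saline libraries (log2 fold change 0.14 ± 0.17; limma, adjusted p = 0.795). ENSMUST00000097563 was 137, 195 and 199 FPKM in PM2.5 libraries and 130, 142 and 135 FPKM in saline libraries (log2 fold change 0.36 ± 0.16; limma, adjusted p = 0.539). The minor transcript held 25.3%, 28.3% and 29.6% of the gene in PM2.5 libraries and 19.7%, 28.2% and 26.9% in saline libraries, with overlap.

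The DM genes were uneven between libraries. The alpha chain gene *H2-DMa* (17:34135182-34139101) was 13.0, 16.7 and 15.9 FPKM in PM2.5 libraries and 17.5, 3.40 and 13.6 FPKM in saline libraries. Saline replicate 3 stood apart, through its main transcript ENSMUST00000042121 at 2.62 FPKM against 11.9 to 16.3 FPKM in the other 5 libraries. The log2 fold change of 0.65 ± 0.57 (limma, adjusted p = 0.699) became -0.028 without that library (adjusted p = 0.972 with limma, against 0.570 to 0.972 over all alternatives).

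The beta chain gene *H2-DMb2* (17:34143307-34151553) was 8.60, 6.83 and 13.1 FPKM in PM2.5 libraries and 12.8, 9.25 and 10.3 FPKM in saline libraries (log2 fold change -0.21 ± 0.25; limma, adjusted p = 0.784). The fold change was -0.0074 without PM2.5 replicate 3, -0.46 without PM2.5 replicate 4 and -0.082 without saline replicate 2. Its copy *H2-DMb1* (17:34153072-34160230) was 0.437, 0.187 and 0.389 FPKM in PM2.5 libraries and 0.374, 0.251 and 0.443 FPKM in saline libraries, a mean of 0.347 FPKM that lay under the filter of 0.5 FPKM, so it was not tested. Fragments shared between these close copies can be assigned to either one, which leaves each value uncertain. Added together they were 9.04, 7.01 and 13.5 FPKM in PM2.5 libraries and 13.2, 9.50 and 10.7 FPKM in saline libraries, with overlap.

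The DO genes, added together, were 4.77, 4.03 and 5.01 FPKM in PM2.5 libraries and 7.98, 5.22 and 6.65 FPKM in saline libraries. The groups did not overlap. Most of this sum is *H2-Ob*, with a mean of 3.98 of 5.61 FPKM over the 6 libraries, and *H2-Oa* by itself overlapped. Among single genes tested, 11.8% were lower without overlap. *H2-Ob* (17:34238903-34245907), the beta chain, was 3.26, 2.72 and 3.54 FPKM in PM2.5 libraries and 6.01, 3.91 and 4.47 FPKM in saline libraries, every PM2.5 library below every saline library. Its log2 fold change was -0.51 ± 0.18 (limma, unadjusted p = 0.0301, adjusted p = 0.378). *H2-Oa* (17:34092340-34095234), the alpha chain, was 1.51, 1.31 and 1.46 FPKM in PM2.5 libraries and 1.97, 1.32 and 2.18 FPKM in saline libraries, where saline replicate 3 lay within the PM2.5 range (log2 fold change -0.25 ± 0.18; limma, adjusted p = 0.643).

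Within *H2-Oa*, the main transcript ENSMUST00000025192 was 1.12, 0.823 and 1.16 FPKM in PM2.5 libraries and 1.10, 0.792 and 1.27 FPKM in saline libraries. ENSMUST00000174670 was 0.390, 0.488 and 0.302 FPKM in PM2.5 libraries and 0.863, 0.525 and 0.909 FPKM in saline libraries, without overlap (log2 fold change -0.49 ± 0.22; limma, adjusted p = 0.541). The share of all transcripts without overlap was not computed. The main transcript of *H2-Ob*, ENSMUST00000095342, was 1.99, 1.51 and 2.97 FPKM in PM2.5 libraries and 3.57, 2.80 and 3.38 FPKM in saline libraries, and a minor one, ENSMUST00000173681, was 0.714, 1.11 and 0.426 FPKM in PM2.5 libraries and 1.48, 0.883 and 0.709 FPKM in saline libraries. The groups overlapped for both of these *H2-Ob* transcripts.

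DO over DM was 0.217, 0.170 and 0.170 in PM2.5 libraries and 0.260, 0.405 and 0.274 in saline libraries, with no overlap. Its numerator is mostly *H2-Ob*, so this ratio and the *H2-Ob* values are not independent results. How often other such ratios do not overlap was not computed. The mean log2 ratio differed by -0.73, PM2.5 minus saline (exact 2-sided permutation p = 0.1, the smallest possible, adjusted p = 0.233 over the 7 ratios). The highest value is that of saline replicate 3, where *H2-DMa* was low, and without it the difference was -0.53. Of 13 B cell markers tested, 11 were negative on the log2 scale, against 8331 of the 14865 genes tested, and their median was -0.43 against -0.03 over all tested genes. With limma, 0 of the 13 had an adjusted or an unadjusted p under 0.05, and for 0 of them did the groups lie apart. Their summed level was 54.6, 42.5 and 93.0 FPKM in PM2.5 libraries and 97.7, 64.3 and 80.3 FPKM in saline libraries, and none of them was at 0 throughout. The part of these markers in the DO values was not tested. In whole lung, fewer cells of a type and less RNA per cell cannot be told apart.

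*Ciita* (16:10488178-10527564, mm10), the class II transactivator, was 2.41, 2.74 and 3.60 FPKM in PM2.5 libraries and 6.35, 0.0281 and 5.19 FPKM in saline libraries, all from ENSMUST00000023147. The PM2.5 libraries lay close together, between the very low saline replicate 3 and the other saline libraries. With all libraries the log2 fold change was 0.30 ± 0.98, and without saline replicate 3 it was -0.88 (adjusted p = 0.938 and 0.473 with limma, range over alternatives 0.473 to 0.972). In saline replicate 3 the classical chains did not share the drop, and *Ciita* over their sum was 0.00903, 0.00905 and 0.0117 in PM2.5 libraries and 0.0208, 0.000103 and 0.0210 in saline libraries. *Ciita* overlaps the NONCODE transcript NONMMUT025465.2 on the other strand. That transcript was 0.516, 0.234 and 0.313 FPKM in PM2.5 libraries and was listed at 0, 0.247 and 0 FPKM in saline libraries, and the library kit does not mark the strand. Whether the value of saline replicate 3 is a failed estimate was not tested.

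**Figure D3:**
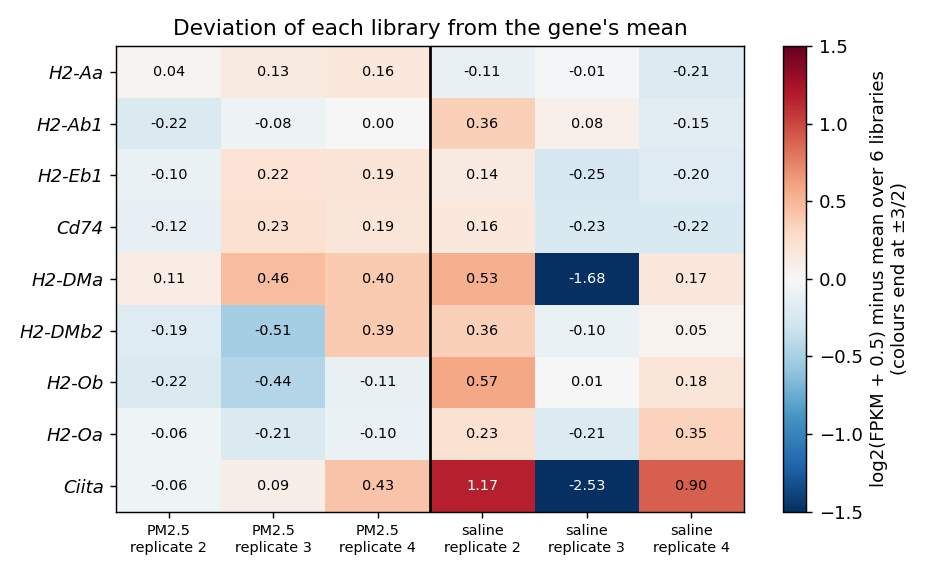
log2(FPKM + 0.5) of each tested class II gene minus its own mean over the 6 libraries (printed in each cell), PM2.5 libraries left of the line and saline libraries right. Saline replicate 3 is -2.53 for *Ciita* and -1.68 for *H2-DMa*, while all values of *H2-Aa*, *H2-Eb1* and *Cd74* lie within 0.25 of their mean.

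Taken by counts, 9 of the 10 genes entered the fit over 14865 genes and limma called 0 of them at an adjusted p under 0.05, in which 0.074% of all tested genes were higher and 0.0202% lower with PM2.5. At an unadjusted p under 0.05 there was 1 higher gene, *H2-Aa*, against 3.66% of all tested genes, and 1 lower gene, *H2-Ob*, against 7.82%. The same genes were the ones without overlap between groups, for which the shares over all tested genes were 7.04% higher and 11.8% lower. Of the 9 genes, 5 had a positive and 4 a negative log2 fold change; their median was 0.20 against -0.03 over all tested genes, and -0.20 without saline replicate 3. *H2-DMb1* is not in these counts, since its level was under the filter. Of 23 member transcripts 16 were tested and limma called 0, against 0.0777% of transcripts called higher and 0.0743% called lower, and 1, the main *H2-Aa* transcript, had an unadjusted p under 0.05. No share of all transcripts at that unadjusted p is given here.

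**Figure D4:**
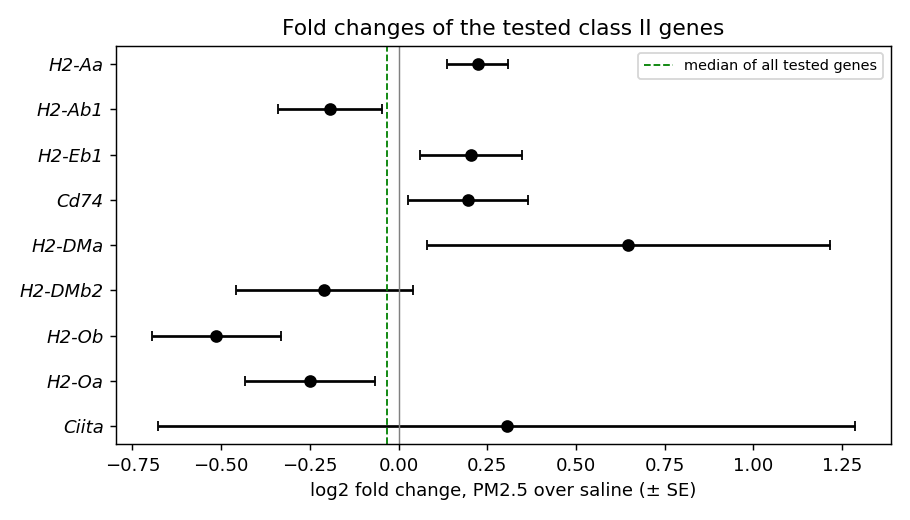
log2 fold change, PM2.5 over saline, with its SE from the limma fit, of the 9 tested class II genes, and the median of all tested genes (dashed). *H2-Aa*, *H2-Eb1* and *Cd74* lie near 0.2, *H2-Ob* at -0.51, and *Ciita* and *H2-DMa* have the widest errors.

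Upstream of *Ciita* and on the class II promoters, 13 of 14 listed genes were tested, with 0 calls by limma and 1 gene at an unadjusted p under 0.05. That gene was *Jak2*, a kinase of the interferon-gamma receptor, at 7.78, 13.2 and 14.1 FPKM in PM2.5 libraries and 7.74, 1.93 and 3.59 FPKM in saline libraries, without overlap (log2 fold change 1.45 ± 0.47; limma, adjusted p = 0.354). Over all tested genes, 3.66% were higher at an unadjusted p under 0.05 with limma and 7.04% were higher without overlap. *Rfx5*, which binds the X box, averaged 5.88 ± 0.734 FPKM in PM2.5 libraries and 6.68 ± 0.681 FPKM in saline libraries (SD, n = 3 each). The interferon-responsive factor *Irf1* averaged 38.5 ± 4.89 FPKM in PM2.5 libraries and 35.2 ± 7.84 FPKM in saline libraries. *Ifng* itself was under the filter, at 0.297 FPKM or less in PM2.5 libraries and 0.406 FPKM or less in saline libraries.

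Among 13 genes of antigen processing and class II turnover, 3 were positive and 10 negative on the log2 scale, as were 6534 and 8331 of the 14865 genes tested. The median was -0.07, and limma called 0. *Ctss*, the cathepsin that trims the invariant chain, averaged 50.5 ± 10.6 FPKM in PM2.5 libraries and 49.4 ± 6.21 FPKM in saline libraries (SD, n = 3 each). The endosomal protease *Lgmn* averaged 33.2 ± 3.15 and the thiol reductase *Ifi30* 25.4 ± 3.88 FPKM in PM2.5 libraries, against 33.0 ± 1.59 and 26.9 ± 5.39 FPKM in saline libraries. The single gene with an unadjusted p under 0.05 was *Cst3*, which encodes the cathepsin inhibitor cystatin C. It was 27.7, 61.2 and 29.6 FPKM in PM2.5 libraries and 92.9, 324 and 90.9 FPKM in saline libraries, without overlap (log2 fold change -1.91 ± 0.58; limma, adjusted p = 0.325). Of all tested genes, 7.82% were lower at an unadjusted p under 0.05 with limma and 11.8% were lower without overlap. *Ctsz* and *March1*, a ubiquitin ligase that removes class II from the surface, followed by p, with *Ctsz* at 36.8 ± 3.24 FPKM in PM2.5 libraries and 43.4 ± 4.22 FPKM in saline libraries, and *March1* at 3.97 ± 1.03 and 4.77 ± 0.397 FPKM in the same order.

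Class I presentation, which serves CD8 T cells, had 18 tested genes, 0 of them called by limma, and their median was -0.06 on the log2 scale. The heavy chain gene *H2-K1* was 13.8, 48.2 and 43.8 FPKM in PM2.5 libraries and 6.78, 3.31 and 13.0 FPKM in saline libraries, without overlap, and was the 1 gene of the list with an unadjusted p under 0.05 (log2 fold change 2.12 ± 0.63; limma, adjusted p = 0.325). The shares of all tested genes in that direction were 3.66% at that p and 7.04% without overlap. Class I heavy chains are close copies and differ between strains, which leaves single values uncertain. The light chain *B2m* averaged 419 ± 15.7 FPKM in PM2.5 libraries and 432 ± 101 FPKM in saline libraries (SD, n = 3 each). *Nlrc5*, the class I counterpart of *Ciita*, averaged 7.59 ± 1.29 and 8.32 ± 2.90 FPKM in that order. The classical class II sum over *H2-K1* and *H2-D1* was 3.59, 2.69 and 2.78 in PM2.5 libraries and 2.05, 3.60 and 3.46 in saline libraries, with an exact 2-sided permutation p of 0.9. Of 4 costimulation genes tested 0 had an unadjusted p under 0.05 with limma, and *Cd86* was 2.53 ± 0.119 FPKM in PM2.5 libraries and 2.59 ± 0.183 FPKM in saline libraries. The same held for the 9 genes of T cells that meet class II, with *Cd4* at 3.74 ± 0.593 and 3.60 ± 1.10 FPKM.

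Markers of cells that carry class II gave a mixed picture, with 0 calls by limma in each list. Of 13 dendritic cell markers, 2 were higher and 2 lower at an unadjusted p under 0.05, where the shares over all tested genes were 3.66% and 7.82%. *Cd209a*, a lectin of monocyte-derived dendritic cells, was 5.24, 4.70 and 6.09 FPKM in PM2.5 libraries and 2.94, 2.91 and 2.58 FPKM in saline libraries (log2 fold change 0.81 ± 0.13; limma, adjusted p = 0.135). *Zbtb46*, a transcription factor of classical dendritic cells and endothelium, was 15.4 ± 1.14 FPKM in PM2.5 libraries and 12.3 ± 1.66 FPKM in saline libraries. *Ccr7*, the chemokine receptor of migrating dendritic cells, was 6.55, 6.18 and 8.08 FPKM in PM2.5 libraries and 11.0, 8.26 and 9.81 FPKM in saline libraries. *Fscn1*, an actin bundler of mature dendritic cells, was 3.82 ± 0.648 FPKM in PM2.5 libraries and 5.89 ± 0.613 FPKM in saline libraries. These 4 had the lowest p of the 13 markers and were the only ones of them without overlap between groups. That makes 2 of 13 higher and 2 of 13 lower, where the shares over all tested genes were 7.04% and 11.8%. The integrin *Itgax* did overlap, at 12.8 ± 1.93 and 13.3 ± 0.765 FPKM, and the summed dendritic cell level was 52.9 to 61.7 FPKM in PM2.5 libraries and 53.1 to 56.8 FPKM in saline libraries.

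Of 14 macrophage and monocyte markers 10 were negative on the log2 scale (median -0.06), against 8331 of the 14865 genes tested. *Ccr2*, the chemokine receptor of recruited monocytes, was the 1 gene with an unadjusted p under 0.05, against 3.66% of all tested genes in the higher direction. It was 8.55, 6.49 and 11.6 FPKM in PM2.5 libraries and 4.67, 3.54 and 5.53 FPKM in saline libraries (log2 fold change 0.86 ± 0.24; limma, adjusted p = 0.303). *Csf1r* varied between 0.149 and 1.05 FPKM in PM2.5 libraries and 0.315 and 3.16 FPKM in saline libraries. The median of the 11 alveolar type 2 markers was -0.02 on the log2 scale, with 0 at an unadjusted p under 0.05. Plasma cells have shut class II off, and all 8 of their markers tested were positive on the log2 scale, against 6534 of the 14865 genes tested. For 4 of the 8 the groups did not overlap, where the share higher over all tested genes was 7.04%. *Sdc1* was 28.8, 41.4 and 38.4 FPKM in PM2.5 libraries and 2.49, 38.8 and 40.5 FPKM in saline libraries, with overlap. Its positive sign, and so the count of all 8, rests on the low value of saline replicate 2. *Igha* was at 111 ± 27.0 FPKM in PM2.5 libraries and 35.4 ± 4.46 FPKM in saline libraries (limma, adjusted p = 0.0808). The part of any of these cell markers in the class II values was not tested.

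**Figure D5:**
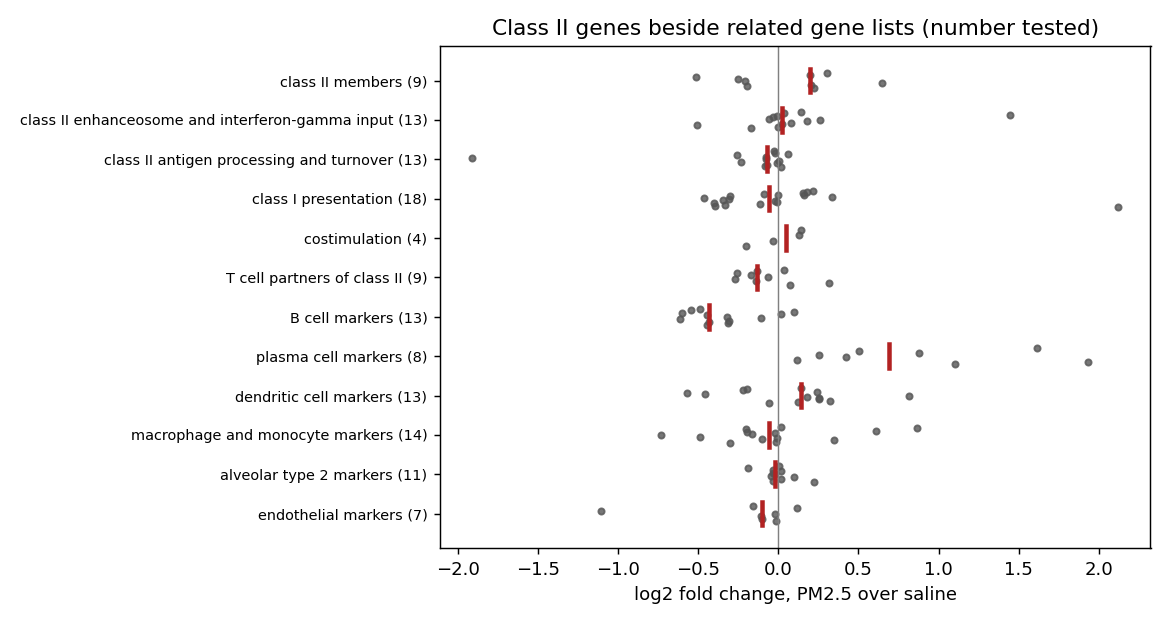
log2 fold change, PM2.5 over saline, of each tested gene (grey) in the class II group and 11 related lists, with the list median as a red line and the number tested in brackets. The class II median is 0.20, the B cell median -0.43 and the plasma cell median 0.69.

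The genes most like the class II group were those whose log2 values, centred on their own mean, lay closest to the mean profile of the 9 tested members over the 6 libraries, among 8073 genes of at least 5 FPKM. Among the 5 closest were *Dda1*, *Sept4*, *Pag1* and *Puf60*, with root mean square differences of 0.0669 to 0.105 on the log2 scale, against a median of 0.323 over the candidates. The members themselves lay 0.218 (*H2-Eb1*) to 0.938 (*Ciita*) from that profile, which saline replicate 3 pulled to -0.55 through *Ciita* and *H2-DMa*. With those members left out, a choice made after seeing the data, the closest genes were *Pou2f1*, *Rnf40*, *Parp1*, *Emp3* and *Mpnd*, and 0 of the 5 were shared. The points of such a comparison are 6 libraries only.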

How the data were processed

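Whole lung RNA of 3 PM2.5 and 3 saline libraries was analysed from 1 deposited table of transcripts. The FPKM values are the authors' own, deposited without a named unit; FPKM was inferred from the values, which are not whole and sum to unequal totals. The submitters' processing notes name HISAT2, bcl2fastq and build mm10. The sources used here give no versions, no quantifier and no annotation release. Ensembl transcripts were summed per symbol. Features averaging 0.5 FPKM or more (14865 genes and, in a separate fit, 60525 transcripts) were fitted as log2(FPKM + 0.5) with limma 3.58.1 (R 4.3.3; mean trend, 2-sided, Benjamini-Hochberg over all features, threshold 0.05), checked on simulated data. Ratios used exact permutation tests. FPKM holds no counts, so no count test was run. Named genes are all members, their transcripts holding 10% or more of a gene, genes fixed by role, and up to 3 genes per list with the lowest p; some genes that this rule or the likeness measure names are not reported here. Members and lists were chosen with earlier results of these data known. Alternatives were other pseudocounts, filters, scalings, robust moderation, locus sums (adding same-strand NONCODE transcripts with 50% or more of their span inside a gene), a replicate block, and each library left out. Low values of transcripts spanning 1500 to 3000 bases gave the depth estimate, although only 38.0% to 42.3% of them lay within 0.05 of a whole step. Only a set range of depths was searched, with genomic span in place of transcript length, so depths outside that range could not be found.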

Additional observations from a re-analysis of the deposited data

How the results depend on the processing

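Over the alternatives run, limma called none of the 9 tested class II genes. The log2 fold changes of *H2-Aa*, *H2-Eb1* and *Cd74* stayed positive and those of *H2-Ab1*, *H2-DMb2*, *H2-Oa* and *H2-Ob* negative in every alternative run for them (*H2-Oa* was under the filter of 2 FPKM and has no value there), among them both scalings, which moved the median of all genes to 0.00 and 0.02. *H2-Aa* ranged from 0.17 to 0.31, *H2-Eb1* from 0.13 to 0.32, *Cd74* from 0.13 to 0.33, *H2-Oa* from -0.42 to -0.14 and *H2-Ob* from -0.64 to -0.35. *H2-Ab1* (-0.19) was -0.060 without saline replicate 2 and -0.32 without saline replicate 4. *H2-DMb2* (-0.21) was -0.0074 without PM2.5 replicate 3, -0.46 without PM2.5 replicate 4 and -0.082 without saline replicate 2. Leaving out single libraries gave -0.028 to 1.07 for *H2-DMa* and -0.88 to 0.97 for *Ciita*, both lowest and negative without saline replicate 3, which also turned the median of the tested class II genes to -0.20. Leaving out 1 library at a time, the log2 difference of DM over the classical chains (0.13 with all libraries) was -0.23 to 0.31, that of *Ciita* over them (1.47) -1.09 to 2.75 and that of class II over class I (0.02) -0.24 to 0.17. The transcript ENSMUST00000041982 of *H2-DMb2* (-0.18) ranged from -0.45 to 0.024 and ENSMUST00000025192 of *H2-Oa* (-0.01) ranged from -0.14 to 0.090. Over all genes, 11 were called higher and 3 lower; the numbers higher were 7 without a filter and 6 under a filter of 2 FPKM, and leaving out single libraries gave 0 to 12 higher and 3 to 14 lower. Of all transcripts 47 were higher and 45 lower, 29 lower under the filter of 2 FPKM, and leaving out single libraries gave 63 to 81 higher and 63 to 103 lower. The numbers were not taken as pairs, because the labels do not say what a shared number means. Deviations of same-numbered libraries from their group means correlated at -0.03, -0.03 and 0.05. With a replicate block, 0 genes were called higher and 1 lower, and 2 transcripts higher and 3 lower. The cause of these shifts was not tested. Values of *H2-DMb1*, *Ifng* and *H2-Eb2* are limited by depth.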
